A study of Mus musculus with 9 samples.

Results

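Amino acid transporters of the plasma membrane and the lysosome were followed through 9 mouse RNA-seq libraries. They were 32 genes taken by symbol from 8 solute carrier (SLC) families, of 54838 genes in the count files, and all 32 were found. The subunits that carry cystine in most cells, Slc7a11 and Slc3a2, were left out by the choice of symbols and are given below only as a reference. One of the 32, Slc3a1, is the heavy chain of a kidney and gut transporter for cystine and dibasic amino acids, and it was kept because it was listed.

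The libraries came from B16F10, a melanoma line from C57BL/6 mice, and from CD8+ T cells taken with an isolation kit from spleens of adult C57BL/6 mice. Each cell type was kept in culture medium for 5 h either alone or with 600 µM hypochlorous acid (HOCl), the oxidant that myeloperoxidase of neutrophils makes. There were 3 untreated and 3 HOCl libraries of B16F10, 2 untreated libraries of T cells and 1 HOCl library of T cells. B16F10 is 1 line, and neither the amino acids of the medium nor the number of mice is stated. Nothing says that replicates were separate cultures or animals, so every p-value below rests on differences among libraries that may be technical. RNA was measured in bulk: fewer cells of a kind and less RNA per cell cannot be told apart, and transcripts were measured, not transporter protein or transport.

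Amino acids cross membranes only through carriers, and the SLC carriers followed here differ in how that passage is driven. SLC1 and SLC6 carriers use the sodium gradient, and SLC38 carriers bring in small neutral amino acids such as glutamine and alanine with sodium. The SLC43 members and the only SLC16 member, Slc16a10, are uniporters. Among the SLC7 genes, the cationic carriers work alone, while the light chains are bound by a disulphide bond to a heavy chain, Slc3a2 or Slc3a1, and exchange 1 amino acid for another. On lysosomes, SLC36 and some SLC38 carriers release the products of protein breakdown, and Slc38a9 reports luminal arginine to the kinase complex mTORC1. Under shortage of amino acids the kinase GCN2 raises translation of the transcription factor ATF4, whose targets include several of these carriers. Oxidants act through another factor, NRF2, which binds antioxidant response elements.

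B16F10 libraries held 45.9 to 61.3 M counts, untreated T cell libraries 49.9 and 52.1 M, and the library labelled T cell HOCl 12.8 M. That last library stood apart: 37.4% of its counts were mitochondrial, against at most 2.11% elsewhere, 44225 genes had a count against at most 25907, and 8 melanocyte markers summed to 6759 counts per M (CPM), against 102 and 25.7 in the untreated T cells and 24160 to 25194 in B16F10. It goes against its label in that respect, so its values are given without a test. In B16F10, 8 CD8 T cell markers summed to 5.13 to 6.96 CPM in 5 libraries and to 36.9 in HOCl replicate 3, and 5 B cell markers to 0.588 to 1.06 and to 16.03 CPM in the same replicate. The untreated T cells held the CD8 T cell markers at 4202 and 4129 CPM, and also B cell markers at 1260.5 and 2358 CPM. In the library labelled T cell HOCl these 2 sums were 591 and 350 CPM. Its 5 fibroblast markers summed to 63.0 CPM, against 1.02 and 1.36 in the untreated T cells and 16.1 to 19.8 in B16F10. Its 5 macrophage and myeloid markers summed to 46.5 CPM, against 16.4 and 11.3 and against 5.12 to 7.06. Its 3 endothelial markers, at 83.4 CPM, stayed below the 159 and 136 CPM of the untreated T cells. Untreated replicate 1 of B16F10 differed more from its fellows (chi-square per degree of freedom 23.2 and 21.2) than they did from each other (4.48).

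Start-site windows of 5 genes are printed because they carry the motif matches that the members below are set beside, and the last is Slc7a11, the left-out cystine carrier. Each runs from 150 bases before to 10 bases after a RefSeq transcript start (GRCm38.p6, the build of the files, minus strand, read 5′ to 3′), with the matched letters in capitals. The ATF4 and C/EBP element was searched as TGATGNAA and the antioxidant response element as TGACNNNGC, on both strands, and no window printed here holds matches of both. Positions are counted from the start site as 1.
Slc1a4, chr11:20332704-20332863: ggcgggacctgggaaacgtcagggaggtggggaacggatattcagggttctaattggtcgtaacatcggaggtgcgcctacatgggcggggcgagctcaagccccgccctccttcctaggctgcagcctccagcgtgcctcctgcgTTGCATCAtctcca
Slc7a7, chr14:54417935-54418094: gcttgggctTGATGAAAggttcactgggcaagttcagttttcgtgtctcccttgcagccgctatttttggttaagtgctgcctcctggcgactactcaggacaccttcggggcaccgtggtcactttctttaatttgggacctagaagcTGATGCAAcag
Slc38a2, chr15:96699719-96699878: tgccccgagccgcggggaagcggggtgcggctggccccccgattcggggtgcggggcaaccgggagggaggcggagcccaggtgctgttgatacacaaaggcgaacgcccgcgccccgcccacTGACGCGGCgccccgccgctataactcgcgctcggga
Slc7a1, chr5:148399895-148400054: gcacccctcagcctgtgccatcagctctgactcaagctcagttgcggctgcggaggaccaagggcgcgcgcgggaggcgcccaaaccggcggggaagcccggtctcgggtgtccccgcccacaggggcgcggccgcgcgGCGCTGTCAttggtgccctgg
Slc7a11, chr3:50443604-50443763: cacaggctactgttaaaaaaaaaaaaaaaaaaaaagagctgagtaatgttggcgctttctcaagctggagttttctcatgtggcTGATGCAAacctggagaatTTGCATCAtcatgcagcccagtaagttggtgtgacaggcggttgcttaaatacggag
Slc1a4 holds TGATGCAA on the opposite strand across its start site, with the leftmost base at -4. Slc7a7 holds TGATGAAA at -141 and TGATGCAA at -1. Slc7a11 holds TGATGCAA in both orientations, at -66 and -47. Slc38a2 holds TGACGCGGC at -27, and Slc7a1 holds TGACAGCGC on the opposite strand at -11. Windows of 24 members were in the RefSeq table. In the full windows of 300 bases, Slc1a4 and Slc7a7 were the 2 members with TGATGNAA (3 of 36 windows), against 3.97% of all 32851 promoter windows, and 6 members held TGACNNNGC (8 of 36 windows), against 12.4% of all windows. Those 6 were Slc6a9, Slc7a1, Slc7a6, Slc36a1, Slc38a2 and Slc43a1. Windows of the same gene can overlap: the TGATGCAA of Slc7a7 and the TGACGTGGC of Slc7a6 were each counted again in an overlapping window. The windows of all genes were not screened for such overlap either. A match describes these letters and is no measured binding site.

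HOCl changed a part of the transporter transcripts of B16F10, in both directions and by modest amounts. Of the 32 genes, 23 had enough counts to be tested, 8 rose, 3 fell and 12 did not pass the test. The 11 that passed were 47.8% of the 23, beside 28.3% of the 16082 genes tested in the same fit. The 8 that rose were 34.8%, beside 14.7% of all genes, and the 3 that fell were 13.0%, beside 13.5%. Here and below, passing means an adjusted p under 0.05 in edgeR's quasi-likelihood test on the counts of the 6 B16F10 libraries, with Benjamini-Hochberg adjustment over all genes tested. The median log2 fold change of the 23 was 0.07, beside -0.01 for all genes, and their median absolute log2 fold change was 0.18, beside 0.20. The 5 largest changes of those that passed were in Slc1a4, Slc7a8, Slc38a7, Slc43a1 and Slc6a9. In a fit of all 9 libraries together, 0 transporters passed (edgeR adjusted p from 0.184 to 1 for these 23, with 3 of 31 tested there at an unadjusted p under 0.05), and 11 genes in all rose and 26 fell. Without HOCl replicate 3, the library with T and B cell markers, 5 transporters rose and 2 fell. Without HOCl replicate 1, 6 rose and 3 fell, and without HOCl replicate 2, 6 rose and 2 fell. Without untreated replicate 1, 9 rose and 5 fell.

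**Figure D1:**
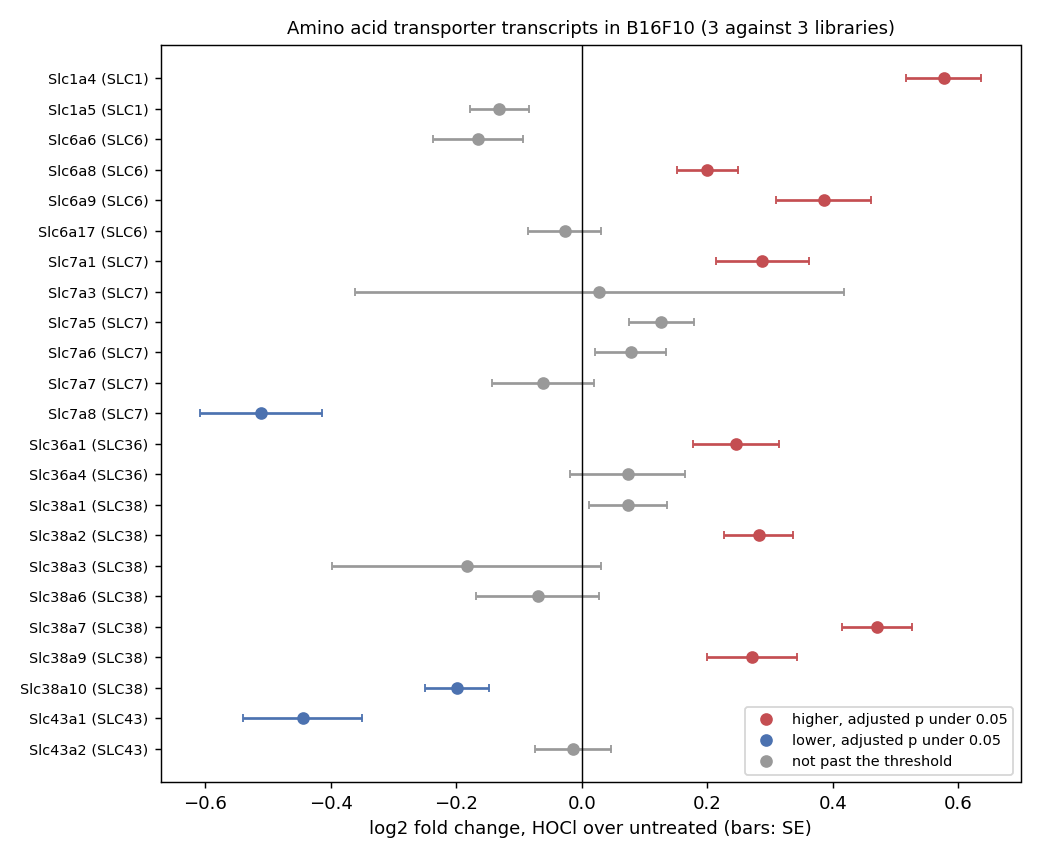
Log2 fold change (HOCl over untreated, x axis) of the 23 tested transporters in B16F10, by gene and family (y axis), with bars for the standard error, in 3 against 3 libraries. Slc1a4 lies farthest right at 0.58, Slc7a8 farthest left at -0.51, and 12 genes are grey because they did not pass the test.

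In the SLC1 family, Slc1a4, the sodium-dependent exchanger ASCT1 for alanine, serine, cysteine and threonine, had the largest rise of the 23. It lies at chr11:20302180-20332713 (GRCm38, ENSMUSG00000020142). Slc1a4 stood at 61.6, 65.2 and 65.3 CPM in the untreated libraries and at 98.8, 89.4 and 104 CPM in the HOCl libraries. Every HOCl library was above every untreated library, and the means, 64.0 ± 2.07 and 97.3 ± 7.32 CPM (SD, n = 3 each), gave a log2 fold change of 0.58 ± 0.06 (SE), 1.49-fold, with an edgeR adjusted p of 4.52e-05. Its close relative Slc1a5, ASCT2, the sodium-dependent glutamine exchanger, had 122, 128 and 120 CPM untreated and 114, 113 and 118 CPM with HOCl. Those ranges did not overlap either, with HOCl the lower, but Slc1a5 did not pass the test (-0.13 ± 0.05, edgeR adjusted p = 0.0552). Without untreated replicate 1 it passed (0.0104), and also with the stricter filter (0.0497). Per kilobase of exon, Slc1a4 stood at 0.552 ± 0.0218 of Slc1a5 in untreated cells and at 0.901 ± 0.0509 with HOCl (SD, n = 3 each). An exact two-sided permutation test of that ratio gave p = 0.1, the smallest that 3 against 3 libraries allow. The same p came from each of the 8 sums and ratios of this kind, and Benjamini-Hochberg adjustment over them leaves it at 0.1. The glutamate and aspartate carriers Slc1a1, Slc1a2 and Slc1a3, best known from neurons and glia, had 0 to 0.102 CPM in B16F10 and were not tested.

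In the SLC6 family, 2 of 4 tested genes rose, beside 14.7% of all genes tested. Slc6a9, the glycine transporter GlyT1 (chr4:117834506-117875198), had 22.8, 26.3 and 27.9 CPM untreated and 34.0, 33.2 and 35.2 CPM with HOCl. The groups did not overlap, and the log2 fold change was 0.39 ± 0.08 (1.31-fold, edgeR adjusted p = 0.00275). Slc6a9 shares 1429 exon bases with Ccdc24 and 46 with B4galt2 on the opposite strand, and whether the counting used strand is not given. Ccdc24 itself was counted at 0.0394 CPM untreated and 0.0453 CPM with HOCl, and B4galt2 at 4.63 and 3.71 CPM. Slc6a8, the creatine transporter, which carries no protein amino acid, had 200.4, 209 and 220 CPM untreated and 246, 249.5 and 242 CPM with HOCl, with no overlap, and rose 1.15-fold (edgeR adjusted p = 0.00916). That call was lost without HOCl replicate 2 (adjusted p = 0.0581). Slc6a6, the taurine transporter, had 415, 509 and 515 CPM untreated and 427, 445 and 435 CPM with HOCl. Untreated replicate 1 was the lowest of the 6 libraries and the other two untreated libraries the highest, and Slc6a6 did not pass the test (-0.16 ± 0.07, edgeR adjusted p = 0.11). Without that replicate Slc6a6 passed as lower (adjusted p = 1.34e-06), and also with no filter on low counts (0.0130). Slc6a17, a vesicle carrier of neutral amino acids best known from neurons, stood at 83.0 ± 5.46 CPM untreated and 83.0 ± 2.99 CPM with HOCl and did not pass.

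Of the cationic carriers, which bring in arginine, lysine and ornithine, 1 was abundant. Slc7a1, CAT1 (chr5:148327410-148399904), had 324, 399 and 394 CPM untreated and 445, 450 and 494 CPM with HOCl. The lowest HOCl library was above the highest untreated library, and Slc7a1 rose by 0.29 ± 0.07 on the log2 scale (edgeR adjusted p = 0.0129). The call was lost without HOCl replicate 3 (adjusted p = 0.0644). Slc7a3, CAT3, was near the limit of detection at 0.363 ± 0.0693 CPM untreated and 0.380 ± 0.114 CPM with HOCl, with a wide error (0.03 ± 0.39, not passed). Slc7a2, CAT2, had 0 counts in all 6 B16F10 libraries, where 3 counts would be 0.0489 to 0.0654 CPM.

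The light chains were led by Slc7a5, LAT1, which exchanges large neutral amino acids such as leucine for glutamine. Slc7a5 had 550, 575 and 609 CPM untreated and 649, 613 and 667 CPM with HOCl. All 3 HOCl libraries were above all 3 untreated libraries, by little: the log2 fold change was 0.13 ± 0.05 (unadjusted 95% interval 0.01 to 0.24), and Slc7a5 did not pass the test (edgeR adjusted p = 0.0893). Without untreated replicate 1 or 3 it passed (adjusted p = 0.0486 and 0.0488), as it did with library totals (0.0446). Slc7a8, LAT2, a relative with a similar range of substrates (chr14:54722209-54781946), went the other way. It had 7.84, 7.75 and 8.39 CPM untreated and 5.88, 5.46 and 5.80 CPM with HOCl. No HOCl library reached the untreated range, and Slc7a8 fell by 0.51 on the log2 scale (SE 0.10, 1.43-fold lower, edgeR adjusted p = 0.00223). Per kilobase, Slc7a8 was at 0.0103 of Slc7a5 in untreated cells and at 0.00659 with HOCl. Slc7a6 and Slc7a7, light chains that exchange cationic for neutral amino acids with sodium, had 70.3 ± 4.68 and 13.1 ± 0.516 CPM untreated and 75.5 ± 0.491 and 12.8 ± 0.771 CPM with HOCl, and neither passed. Slc7a7, whose start-site window holds TGATGNAA letters as that of Slc1a4 does, had a log2 fold change of -0.06 ± 0.08. Slc7a7 shares 232 exon bases with the opposite-strand gene Oxa1l, counted at 63.1 and 63.3 CPM. Slc7a10, Asc-1, a carrier of small neutral amino acids, had 0 counts in all 6 libraries, and Slc3a1, the heavy chain named above, had at most 0.210 CPM.

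The heavy chain that these light chains share in most cells, Slc3a2 (4F2hc), rose from 406 ± 21.2 to 577 ± 10.5 CPM (1.40-fold, edgeR adjusted p = 4.17e-05). Slc7a11, the cystine light chain of the same heavy chain, rose from 155 ± 25.3 to 422 ± 24.2 CPM. Per kilobase of exon, the member light chains Slc7a5, Slc7a6, Slc7a7, Slc7a8 and Slc7a10 summed to 177 ± 8.75 untreated and 195 ± 7.19 with HOCl. Slc7a5 stood at 1.219, 1.41 and 1.45 of Slc3a2 in the untreated libraries and at 1.05, 1.03 and 1.10 with HOCl. Slc7a11 stood at 0.0746, 0.112 and 0.106 of Slc3a2 untreated and at 0.175, 0.183 and 0.198 with HOCl. In neither ratio did the groups overlap: the ratio of Slc7a5 to Slc3a2 was lower with HOCl and that of Slc7a11 to Slc3a2 higher (exact permutation p = 0.1 for each).

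Of the uniporters, which let amino acids run down their gradient, 1 fell. Slc43a1, LAT3, a uniporter of branched-chain amino acids and phenylalanine (chr2:84838850-84863594), had 10.1, 11.1 and 10.1 CPM untreated and 8.49, 7.68 and 7.26 CPM with HOCl. The ranges were apart, and Slc43a1 fell by 0.44 on the log2 scale (SE 0.10, 1.36-fold lower, edgeR adjusted p = 0.00449). Slc43a2, LAT4, a relative with similar substrates, had 33.0 ± 1.31 and 33.3 ± 1.36 CPM and did not pass. Slc16a10, TAT1, the uniporter of aromatic amino acids, had 0 to 0.0630 CPM and was not tested.

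Of the SLC38 carriers known from the plasma membrane, 1 passed. Slc38a2, SNAT2, which takes up small neutral amino acids and is a known target of the amino acid response (chr15:96687392-96699730), had 377, 427 and 432 CPM untreated and 507, 508 and 516 CPM with HOCl. The HOCl libraries lay close together above all untreated libraries, and Slc38a2 rose by 0.28 ± 0.05 on the log2 scale (edgeR adjusted p = 0.00249). Slc38a1, SNAT1, with similar substrates, had 493 ± 45.8 CPM untreated and 529 ± 14.5 CPM with HOCl and did not pass (0.07 ± 0.06, adjusted p = 0.411). Slc38a3, SNAT3, a glutamine carrier best known from liver and brain, had 1.63 ± 0.306 and 1.47 ± 0.0748 CPM and did not pass. Slc38a4 and Slc38a5 had at most 0.0761 CPM and were not tested. Slc38a6, a less studied relative, had 19.0 ± 2.26 and 18.4 ± 1.94 CPM and did not pass. Slc38a10, also less studied and found inside cells, had 415, 381 and 400.5 CPM untreated and 369, 350 and 343 CPM with HOCl. It fell by 0.20 on the log2 scale (SE 0.05, 1.15-fold lower, edgeR adjusted p = 0.0117), and the call was lost without HOCl replicate 2 (adjusted p = 0.0620) or 3 (0.0703). Slc38a10 shares 367 exon bases with the opposite-strand gene Gm11769, counted at 0.311 and 0.296 CPM.

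Of the 4 carriers known from the lysosome, 3 rose, beside 14.7% of all genes tested. Slc38a7, SNAT7, which exports glutamine and asparagine from the lysosome (chr8:95835920-95853539), had 110, 119 and 126 CPM untreated and 167, 161 and 173 CPM with HOCl. The groups did not overlap, and Slc38a7 rose 1.39-fold (0.47 ± 0.06, edgeR adjusted p = 0.000103), second among the 23 to Slc1a4. Slc38a9, the arginine sensor (chr13:112660751-112738749), had 13.9, 14.9 and 13.9 CPM untreated and 17.7, 17.1 and 17.8 CPM with HOCl, 1.21-fold higher (0.27 ± 0.07, edgeR adjusted p = 0.0137). Slc36a1, PAT1, which lets small amino acids out with protons (chr11:55204350-55236330), had 47.9, 58.7 and 53.2 CPM untreated and 63.8, 64.4 and 64.7 CPM with HOCl, 1.19-fold higher (0.25 ± 0.07, edgeR adjusted p = 0.018). In both, all HOCl libraries were above all untreated ones. Slc38a9 shares 182 exon bases with the opposite-strand gene Gm47827, counted at 0.173 and 0.183 CPM. The call of Slc36a1 was lost when any 1 HOCl library was left out (adjusted p from 0.0575 to 0.0683), and that of Slc38a9 without HOCl replicate 1 (0.0552) or 3 (0.0574). Slc36a4, PAT4, had 21.6 ± 3.03 and 23.1 ± 0.195 CPM and did not pass.

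**Figure D2:**
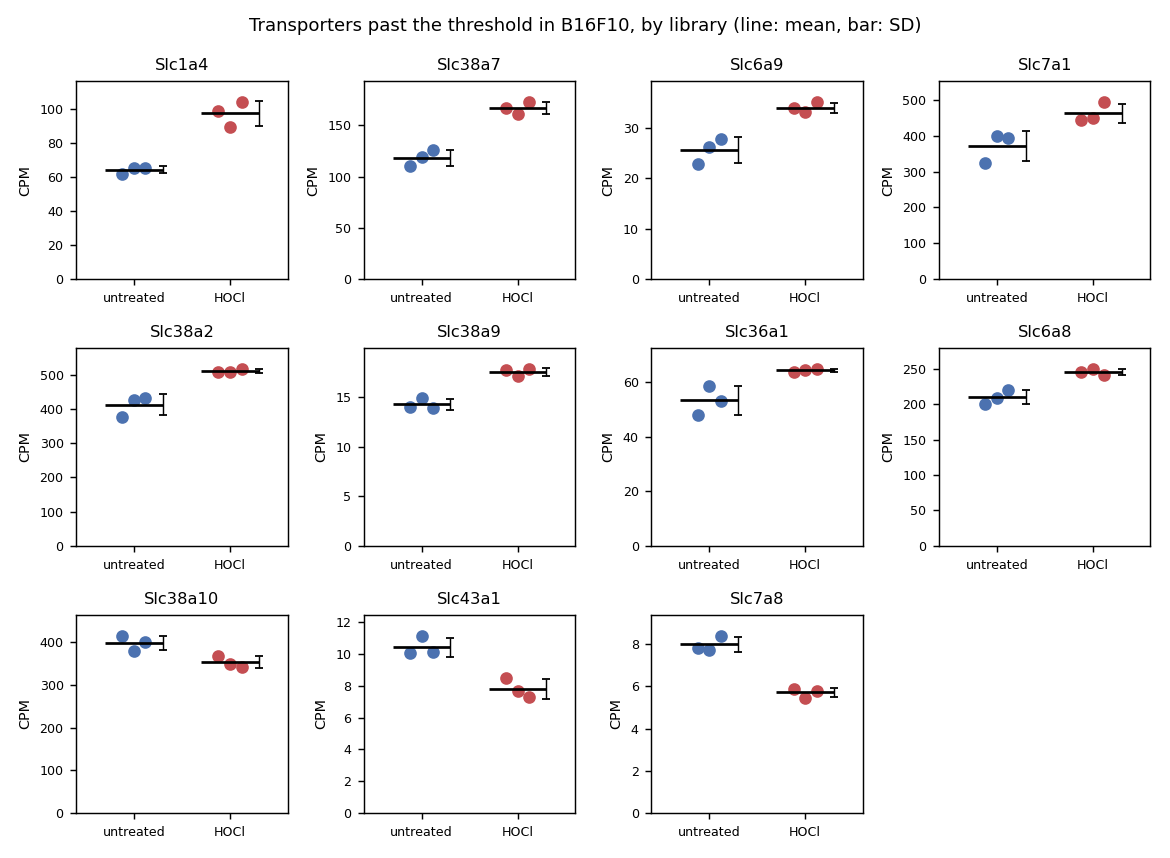
CPM in each untreated and HOCl library of B16F10 (1 point a library, 3 a group, y axes from 0) for the 11 transporters that passed the test, with the mean as a line and the SD as a bar. In each panel the groups do not overlap: for Slc1a4 the highest untreated library is at 65.3 CPM and the lowest HOCl library at 89.4 CPM.

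The groups did not overlap for 14 of the 23 tested transporters (60.9%), beside 43.6% of all genes tested. These were the 11 that passed and Slc1a5, Slc7a5 and Slc7a6. The authors' deposited table of B16F10 calls 11 of the transporters at the same threshold, 8 with a positive and 3 with a negative sign. These were the same 11 genes with the same signs. That table compares the same B16F10 groups, so the match is no independent support. In all 12 alternatives other than the fit of 9 libraries, 6 of the calls remained: Slc1a4, Slc6a9, Slc7a8, Slc38a2, Slc38a7 and Slc43a1.

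Linked genes from 5 other lists were read in the same fit. In the list of the amino acid response through GCN2 and ATF4, 12 of 15 rose and none fell (median log2 fold change 0.60), led by Chac1, a glutathione-degrading enzyme (1.48 ± 0.06), Trib3, a pseudokinase (1.24 ± 0.08), and Cebpb, a transcription factor (0.93 ± 0.08). Atf4 itself went from 358 ± 23.0 to 584 ± 16.4 CPM, and Asns, asparagine synthetase, from 285 ± 10.1 to 344.5 ± 9.43 CPM, both past the threshold. The 3 that did not pass were Eif2ak4, the gene of GCN2 itself, Psat1 and Phgdh. The 12 of 15 stand beside 14.7% of all genes that rose, and the median beside 0.07 in the transporters.

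The other exporters of the lysosome had 6 tested genes, of which 3 rose and none fell (median log2 fold change 0.25). Over all genes tested, 14.7% rose and 13.5% fell. Ctns, the cystine exporter cystinosin, rose by 0.29 ± 0.06, from 48.8 ± 3.73 to 60.9 ± 1.90 CPM. Pqlc2, the exporter of cationic amino acids, rose by 0.25 ± 0.06, from 29.1 ± 1.39 to 35.2 ± 0.817 CPM. Slc17a5, sialin, best known as the sialic acid exporter, rose by 0.26 ± 0.09, a call lost without untreated replicate 2 (edgeR adjusted p = 0.0628) or any 1 HOCl library (0.0587 to 0.179). The list of lysosomal amino acid sensing by Rag GTPases and mTORC1 had 30 tested genes. Of these, 9 rose and 1 fell (median 0.06), beside the 14.7% and 13.5% of all genes tested. Rragd, one of the Rag GTPases, rose by 0.37 ± 0.06, Bmt2, also called SAMTOR, by 0.34 ± 0.06 and Mios, a part of GATOR2, by 0.32 ± 0.07. Lamtor4, a part of the Ragulator anchor, fell by 0.24 on the log2 scale (SE 0.08), a call lost without untreated replicate 1 (0.0677), without any 1 HOCl library (0.0891 to 0.133) or with library totals (0.0613).

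Carriers of the mitochondrial inner membrane had 11 tested genes, of which 1 rose and 4 fell (median log2 fold change -0.18). Beside them, 14.7% of all genes tested rose and 13.5% fell. Slc25a44, the carrier of branched-chain amino acids, rose by 0.33 ± 0.06, from 59.9 ± 4.34 to 76.7 ± 3.13 CPM. Slc25a13, the aspartate and glutamate carrier citrin, went from 172 ± 2.08 to 141 ± 1.61 CPM and fell by 0.31 on the log2 scale (SE 0.04). Sfxn2 and Sfxn1, the latter a serine carrier, fell by 0.23 and by 0.18 (SE 0.06 and 0.05), and both calls were lost without untreated replicate 2 (edgeR adjusted p = 0.0631 and 0.0509) or HOCl replicate 2 (0.0780 and 0.0815), that of Sfxn1 also without HOCl replicate 1 (0.0518). Of 23 relatives from the same SLC families that were not among the 32, 6 were tested, and besides Slc3a2 and Slc7a11 only Slc7a4 passed, an orphan of the cationic carriers, which fell by 0.85 (SE 0.14) from 5.41 ± 0.468 to 3.07 ± 0.412 CPM. Slc6a19, a neutral amino acid carrier, was among those not tested: it had 1.52 CPM in HOCl replicate 3 and 0.06 to 0.15 CPM in the other B16F10 libraries, against 231 and 151 CPM in the untreated T cells.

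**Figure D3:**
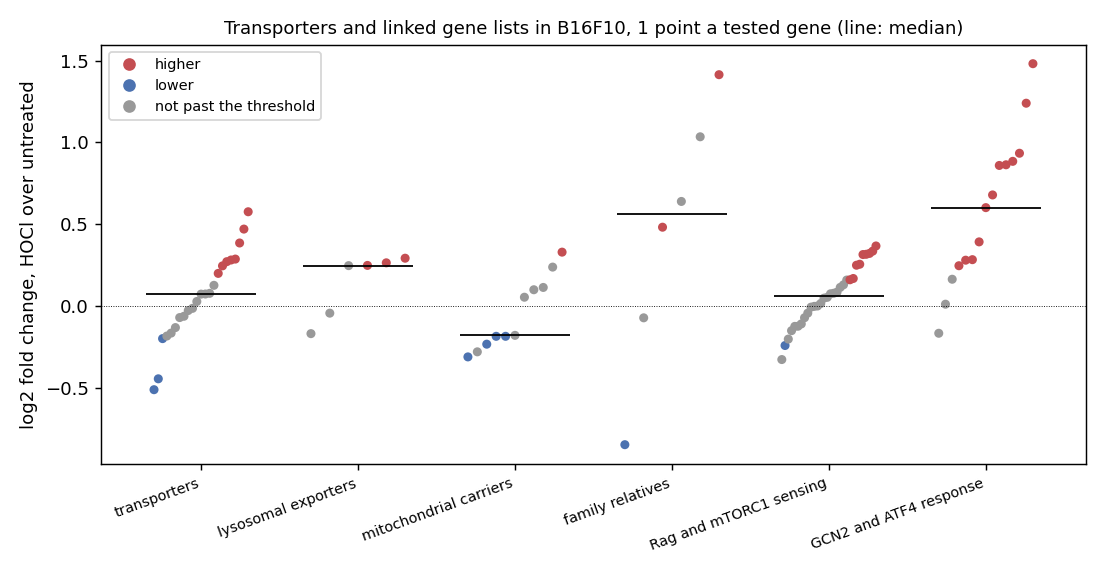
Log2 fold change (HOCl over untreated, y axis) in B16F10 of each tested gene of the transporters and of 5 linked lists (x axis), with the median of each list as a line. The medians run from -0.18 in the mitochondrial carriers through 0.07 in the transporters to 0.60 in the GCN2 and ATF4 list.

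Levels between genes can be compared only per length. In CPM per kilobase of exon, untreated B16F10 had Slc7a5 far in front at 156 ± 8.06, or 28.2% of the summed level of the 32 genes. Slc38a10 (62.1 ± 2.69) and Slc6a6 (56.7 ± 6.66) followed with ranges that overlapped. Slc38a2 stood at 46.6 ± 3.43 and Slc6a8 at 40.3 ± 1.93, each apart from its neighbours. Slc7a1, Slc1a5, Slc38a1 and Slc38a7 came next at 32.3, 29.6, 28.6 and 28.6, and neighbours among them overlapped. With HOCl the first place did not move, Slc38a2 (57.7 ± 0.527) stood beside Slc38a10 (55.1 ± 2.05), whose ranges overlapped, and Slc38a7 (40.3 ± 1.37) stood beside Slc7a1 (40.1 ± 2.37). The summed level of the 32 genes was 520, 563 and 575 CPM per kilobase in the untreated libraries and 609, 595 and 620 with HOCl, so that the groups did not overlap (exact permutation p = 0.1).

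In untreated T cells the order of the carriers was another. Per kilobase, Slc38a2 was first at 49.8 ± 6.66 (SD, n = 2), followed by Slc7a5 at 36.4 ± 27.8 and Slc1a5 at 31.0 ± 21.5, all with overlapping ranges. The libraries differed from each other: Slc7a5 had 62.0 and 208 CPM, Slc1a5 193 and 65.7 CPM and Slc36a1 53.2 and 10.4 CPM. Of 25 transporters tested between untreated B16F10 and untreated T cells, 16 were higher and 5 lower in B16F10, and 4 did not pass. The 21 that passed were 84.0%, beside 71.1% of 18352 genes, with 35.8% of all genes higher and 35.4% lower, and the median log2 difference was 1.496, beside -0.02. Cell type, culture and isolation cannot be told apart in this comparison.

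The largest differences toward B16F10 were in the SLC6 family. Slc6a17 had 83.0 ± 5.46 CPM in B16F10 and 0.42 and 0.04 CPM in the T cells (log2 difference 8.27 ± 0.67, edgeR adjusted p = 0.000143). Slc6a8 had 210 ± 10.0 CPM in B16F10 and 2.92 and 1.40 CPM in the T cells (6.37 ± 0.35, edgeR adjusted p = 3.53e-05). Slc7a8 (3.92 ± 0.35) and Slc6a9 (3.21 ± 0.35), which HOCl moved in opposite directions in B16F10, were both higher in B16F10. Slc1a4 was higher by 2.88 ± 0.71 (edgeR adjusted p = 0.0121) and Slc7a5 by 1.82 ± 0.54 (adjusted p = 0.0241), and both calls were lost with no filter on low counts (0.0823 and 0.0756) and without B16F10 untreated replicate 1 (0.0527 and 0.0906). That of Slc7a5 was also lost without untreated replicate 2 (0.0630) or 3 (0.0638). Lower in B16F10 were Slc16a10 (-8.30 ± 0.91), with 8.09 and 3.90 CPM in T cells, Slc3a1 (-5.001 ± 0.53), with 3.34 and 3.19 CPM, Slc43a2 (-1.94 ± 0.29), Slc7a3 (-1.91 ± 0.42) and Slc38a9 (-1.75 ± 0.30). Slc43a2 shares 922 exon bases with the opposite-strand gene Gm45606, which was lower in B16F10 too (-2.45 ± 0.48, edgeR adjusted p = 0.00495), with 12.3 and 3.86 CPM in the T cells. Slc3a1 shares 601 exon bases with the opposite-strand gene Prepl, which had 23.1 CPM in the T cells. Not passing were Slc1a5, Slc36a1, Slc36a4 (0.66 ± 0.26, edgeR adjusted p = 0.0628) and Slc38a2 (-0.34 ± 0.16, adjusted p = 0.103). Slc36a4 passed as higher in B16F10 with library totals (0.0337), with no filter (0.0264), in DESeq2's test (0.0437), in the fit of 9 libraries (0.0181) and without T cell replicate 1 (0.000119) or 2 (0.0328). Slc38a2 passed as lower with the stricter filter (0.0236), in DESeq2's test (0.0142) and without T cell replicate 1 (0.0477) or 2 (0.00721). For Slc1a5 the sign turned with the library left out, from 0.62 without T cell replicate 1 to -0.78 without T cell replicate 2. Slc36a1 likewise went from 2.06 to -0.14.

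**Figure D4:**
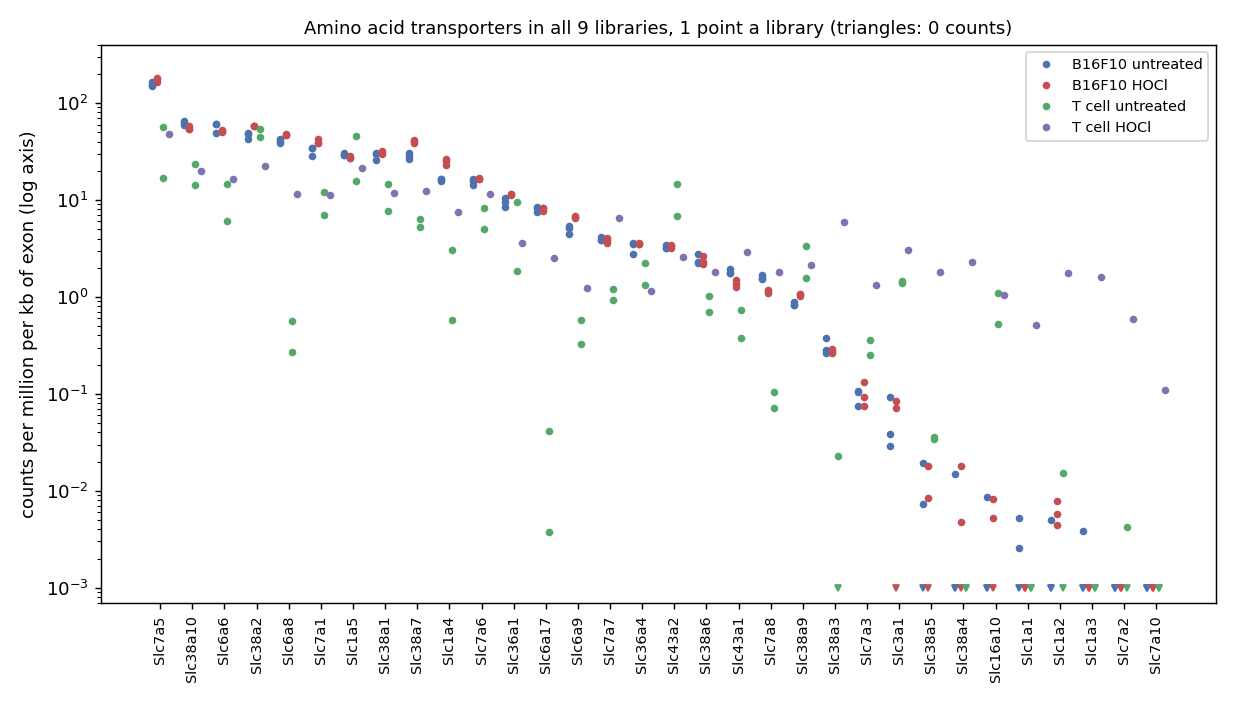
CPM per kilobase of exon (y axis, log) of the 32 transporters (x axis, ordered by untreated B16F10) in each of the 9 libraries, 1 point a library, with triangles for 0 counts. Slc7a5 leads in B16F10 at 156 in untreated cells, and the library labelled T cell HOCl has a count for all 32 genes, including those at or near 0 in the others.

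In the library labelled T cell HOCl, 21 of the 32 transporters were above both untreated T cell libraries, 8 lay between them and 3 were below. Over all 54838 genes, 64.4% were above both and 12.8% below both. Of the 25 transporters with at least 1 CPM in an untreated library of either cell type, 14 were above both, beside 45.3% of the 15322 such genes. Below were Slc38a2, with 199 CPM against 482 and 399, Slc43a2, with 25.7 CPM against 148 and 68.0, and Slc36a4, with 7.55 CPM against 14.7 and 8.62. Above both were genes that B16F10 held far higher than T cells, such as Slc6a8 at 59.3 CPM and Slc6a17 at 25.8 CPM. Slc3a1 at 6.85 CPM and Slc7a3 at 5.06 CPM, both lower in B16F10 than in T cells, were above both as well. Others were above every untreated library of either cell type, such as Slc38a3 at 31.0 CPM, Slc7a7 at 21.6 CPM and Slc43a1 at 16.5 CPM. In all, 8 of the 32 transporters were above both untreated T cell libraries and below every untreated B16F10 library, beside 6.37% of all 54838 genes. That base includes 39516 genes under 1 CPM in every untreated library, and the share among the 15322 others was not taken. Among those above were also genes that neither cell type had. Under 1 CPM in every untreated library of both cell types were 7 transporters, and 6 of them had at least 1 CPM here, such as Slc1a2 at 23.4 CPM, Slc1a3 at 13.7 CPM and Slc38a4 at 9.65 CPM. Of all 39516 genes under 1 CPM in every untreated library, 41.6% had at least 1 CPM here. The seventh, Slc7a10, had 0.234 CPM, which is 3 counts in this library. The part that its mitochondrial share, its melanocyte markers and its many genes with a count have in these values was not tested.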

How the data were processed

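Counts of reads per gene in 9 libraries were deposited by the authors as raw whole numbers. The submitters' processing notes name featureCounts 1.6.0, STAR 2.7.1a, DESeq2 1.22.2, FastQC 0.11.8 and build mm10. Annotation, strand setting and handling of reads with several matches: not given in the sources used here. The authors' deposited table of B16F10, with log2 fold changes and adjusted p-values, was used only to set calls side by side.

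CPM are counts per M of a library's total. Counts were tested with edgeR 4.0.16 (R 4.3.3; filterByExpr with a minimum count of 10, TMM, robust quasi-likelihood fit, Benjamini-Hochberg threshold 0.05). B16F10 HOCl was compared with untreated (3 against 3), and untreated B16F10 with untreated T cells (3 against 2). The script was tested on simulated data. Alternatives were other scalings, filters, DESeq2 1.42.0, all 9 libraries in 1 fit, a replicate block and each library left out. Exon lengths and coordinates are from GENCODE M21 (GRCm38, 1-based; 54809 of 54838 gene IDs found). Intervals cover 95%, and floors (3 counts) cover counting error only. Named are all members, with every library's value for those past the threshold, of which the rule asked only for the larger changes; those of Slc1a5, Slc6a6 and Slc7a5 were added after their values were seen. Of linked lists up to 3 genes a direction are named by size, plus Slc3a2 and Slc7a11. Atf4, Asns and Slc6a19 were added after their values were seen, as were the 3 genes of the GCN2 and ATF4 list that did not pass. The members and lists were chosen with earlier results of these data known.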

Additional observations from a re-analysis of the deposited data

How the results depend on the processing

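In the HOCl comparison of B16F10, the numbers of genes higher and lower stayed within 1.5 times of 2366 and 2178 under DESeq2 size factors, library totals, both filters, DESeq2's test and the replicate block, but were 11 and 26, with 0 and 0 transporters, in the fit of all 9 libraries. Leaving out 1 library gave 1605 to 2819 genes higher, 1410 to 2634 lower (1432 without HOCl replicate 2, 1410 without HOCl replicate 3), 5 to 9 transporters higher and 2 to 5 lower. The cause was not tested. The replicate block gave 2726 genes higher and 2567 lower, and 9 and 4 transporters, with Slc7a5 (adjusted p = 0.0452) and Slc6a6 (0.0259) past the threshold. Deviations of same-numbered libraries correlated at 0.0872, -0.0218 and 0.0369, and those of differently numbered libraries at -0.0992 to 0.0812. With so few libraries these values cannot tell whether the numbers mark pairs. The sign turned only for transporters without a call: without TMM, Slc6a17 (0.000117) and Slc43a2 (0.013), and on leaving out 1 library, Slc6a17 (-0.074 to 0.015), Slc43a2 (-0.032 to 0.020), Slc36a4 (-0.038 to 0.14), Slc38a6 (-0.16 to 0.031) and Slc7a3 (-0.23 to 0.20). Between untreated B16F10 and T cells, leaving out 1 library gave 5344 to 7837 genes higher, 5588 to 7589 lower, 14 to 19 transporters higher and 5 to 7 lower. There the sign turned for Slc3a2 (-0.034 with DESeq2 size factors and with DESeq2's test, -0.16 with the stricter filter, -0.46 to 0.93 on leaving out 1 library), Slc1a5 (-0.78 to 0.62) and Slc36a1 (-0.14 to 2.06), none called with all 5 libraries. The replicate block there gave 5320 and 4763 genes and 16 and 4 transporters, without Slc7a3 (adjusted p = 0.129).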
